A study of Mus musculus with 10 samples.

Results

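A set of 10 genes that immature neurons use to leave the progenitor state and to extend axons was examined in the prefrontal cortex of mice lacking a working copy of Arid1b. The 10 genes were Sox4, Sox11, Igfbpl1, Dcx, Tubb3, Tubb2b, Stmn2, Dpysl3, Gap43 and Marcksl1, chosen by name with earlier results of these data known. They are 10 of the 18216 genes in the deposited table, and all 10 were among the 16781 genes whose mean reached the minimum for testing. Bulk prefrontal cortex was taken at postnatal day 10 from 5 Arid1b heterozygotes (HT) and 5 wild types (WT), all of them males of the C57BL/6N strain, and its RNA was sequenced. Arid1b encodes a DNA-binding subunit of the BAF chromatin remodelling complex. The heterozygotes carried a germline protein-truncating mutation in 1 copy of the gene, a deletion with an insertion of TT. Every cell of the body, and not only neurons, therefore had the mutation. The labels give no treatment. The values are normalised counts, that is, read estimates per gene divided by a size factor for each sample.

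Newborn cortical neurons pass through a stage in which the related transcription factors Sox4 and Sox11 switch on neuronal genes. During this stage doublecortin and neuron-enriched tubulins build the microtubules of the leading process and axon, and stathmins and collapsin response mediator proteins control how those microtubules turn over. Membrane-linked proteins such as Gap43 and Marcksl1 sit in the growth cone, the moving tip of the axon. Most of these transcripts are known to decline as neurons mature and form synapses, and they persist in the migrating neuroblasts that supply the olfactory bulb after birth.

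The data as a whole matched their labels. Arid1b itself lay between 1767 and 1987 normalised counts in the HT mice and between 2662 and 3018 in the WT mice, with no overlap. Its log2 fold change was -0.59 (SE 0.05, limma with Benjamini-Hochberg adjustment, adjusted p = 9.96e-05). Defining genes of cortical projection neurons were present in every sample, from Emx1 at a mean of 479 to Slc17a7, the main vesicular glutamate transporter of cortex, at 46416. Markers of striatum and of olfactory bulb were also present in every sample and varied widely between mice. The 12 striatal markers summed to between 13466 and 33122 normalised counts in HT mice and between 11549 and 28256 in WT mice, and were lowest in HT5, WT3 and WT5. Of these markers 11 of 12 were higher in HT (median log2 fold change 0.37), against 48.8% of all genes, with 0 at an unadjusted p under 0.05 in limma. HT2 had 8.43% of its normalised counts on mitochondrial genes, against 5.15% to 6.76% in the other samples. The total per sample lay between 31106330 and 32106791 normalised counts, which is after scaling and does not give the sequencing depth.

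Regulatory sequence is shown for Sox4, Sox11 and Dcx because their levels were highest in the same mice, WT4 and HT2. The sequences are the stretches just upstream of an annotated start (GRCm38.p6), on the gene's strand and 5′ to 3′. The start farther upstream was used, that of GENCODE M21 for Sox4 and Dcx and that of RefSeq for Sox11. The Sox4 stretch is chr13:28953714-28953949 (minus strand), the Sox11 stretch is chr12:27342719-27342968 (minus strand) and the Dcx stretch is chrX:143933312-143933469 (minus strand). Capitals mark the motif matches a search on both strands found.
Sox4: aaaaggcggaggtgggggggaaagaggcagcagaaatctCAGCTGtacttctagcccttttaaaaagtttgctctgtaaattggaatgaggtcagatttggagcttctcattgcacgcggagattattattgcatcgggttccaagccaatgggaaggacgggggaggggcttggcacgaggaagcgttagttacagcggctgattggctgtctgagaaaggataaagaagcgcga
Sox11: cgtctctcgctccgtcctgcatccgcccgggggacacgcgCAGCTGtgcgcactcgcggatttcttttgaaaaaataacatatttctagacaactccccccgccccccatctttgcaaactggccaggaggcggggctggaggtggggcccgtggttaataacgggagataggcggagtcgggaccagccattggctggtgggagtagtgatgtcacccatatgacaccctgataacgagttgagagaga
Dcx: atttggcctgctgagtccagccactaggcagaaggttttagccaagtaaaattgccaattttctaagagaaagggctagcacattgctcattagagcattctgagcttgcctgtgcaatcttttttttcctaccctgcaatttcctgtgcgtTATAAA

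The upstream stretches of Sox4 and Sox11 each held 1 copy of CAGCTG, a form of the E-box bound by basic helix-loop-helix factors. That motif was present in 16.3% of the 32851 RefSeq promoter windows of 300 bases, each from 250 bases before to 50 after a start. The Dcx stretch ended, directly before the GENCODE start, in TATAAA, the letters of the TATA box core. At any position and on either strand, 13.6% of windows held that motif. A match to AACAAAG, a core recognised by Sox proteins, was found in a window of Dcx outside the stretch shown, and 5.85% of all windows held it. Windows were given for 5 of the 10 genes (Sox4, Sox11, Dcx, Tubb3 and Marcksl1). These matches describe letters in the sequence and are not measurements of binding.

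The last coding bases of Tubb2b are shown beside those of its neighbour Tubb2a because the near-identity of the pair bears on how far the Tubb2b value can be trusted. Both are from GENCODE M21 transcripts, 5′ to 3′ up to the stop codon, and capitals mark the bases that differ.
Tubb2a: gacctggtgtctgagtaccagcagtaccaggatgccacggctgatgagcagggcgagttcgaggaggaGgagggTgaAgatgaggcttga
Tubb2b: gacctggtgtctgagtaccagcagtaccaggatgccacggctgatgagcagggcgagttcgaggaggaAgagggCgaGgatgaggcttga

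Within the 90 bases shown, 3 differed, and over the whole coding sequence of 1338 bases the pair differed at 47 positions (96.5% identity). Of all 31-base words in the transcripts of Tubb2b, 35.2% also occurred in Tubb2a, and 43.1% occurred in some other gene. The share for the other 9 genes was at most 6.86%, in Marcksl1. The split of reads between Tubb2a and Tubb2b therefore rested on the authors' statistical assignment far more than for the other 9 genes.

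The SoxC transcription factors were compared first. Sox4 (ENSMUSG00000076431, chr13:28948919-28953713, minus strand) measured 1814, 2526, 1900.4, 1978 and 2240.0 normalised counts in HT1 to HT5. In WT1 to WT5 it measured 1866, 1948, 1853, 3009.8 and 1916. A single WT mouse, WT4, stood far above the other 4, and the HT values lay inside the WT range except for HT1 just under it. The HT mean was 2092 ± 291 and the WT mean 2119 ± 499.7 (SD, n = 5 each, as for all means given). Expressed as a log2 fold change, always HT relative to WT on the log2(normalised count + 1) scale, the difference was 0.00 (limma, SE 0.13, 95% confidence interval -0.28 to 0.27, adjusted p = 0.997).

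Sox11 (ENSMUSG00000063632, chr12:27334264-27342574, minus strand), which acts alongside Sox4, measured 763, 1066, 909, 900.3 and 1018 in the HT mice. The WT mice had 835, 801, 664, 1261 and 716. Again WT4 was the highest of all 10 mice and HT2 the second, and the groups overlapped. Mean levels were 931 ± 118 in HT and 855 ± 237 in WT, and the log2 fold change was 0.15 (limma, SE 0.15, interval -0.16 to 0.46, adjusted p = 0.732). It was 0.30 without WT4 (limma, unadjusted p = 0.00939, adjusted p = 0.38), 0.07 without WT3 and 0.10 without WT5.

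Igfbpl1 (ENSMUSG00000035551, chr4:45809468-45826923, minus strand), an insulin-like growth factor binding protein family member known from newborn neurons, was the least abundant of the 10 genes. HT1 to HT5 measured 107, 243, 181, 126 and 232 normalised counts. WT1 to WT5 measured 82.5, 76.8, 37.5, 288 and 30.3. All 5 HT mice lay above 4 of the 5 WT mice, but WT4 exceeded every HT mouse. Igfbpl1 had a log2 fold change of 1.19 (SE 0.48, interval 0.17 to 2.22, or 2.29-fold), the largest among the 10 genes. The call did not pass adjustment over all genes (limma, unadjusted p = 0.0256, adjusted p = 0.507), and the exact two-sided permutation test gave p = 0.0873. On the plain means, 178 ± 61.0 against 103 ± 106, the log2 ratio was 0.79.

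The Igfbpl1 difference depended on which mice were included. Without WT4 the log2 fold change was 1.68 (limma, adjusted p = 0.319), and without WT5 it was 0.88. Leaving out HT5, WT3 and WT5, the 3 mice with the lowest striatal marker scores, reduced it to 0.35. WT3 and WT5 were also the WT mice with the least Igfbpl1, whereas HT5 had the third highest value of all 10 mice. With marker scores as covariates, the log2 fold change of Igfbpl1 was 1.01 for striatum, 1.01 for olfactory bulb and 0.79 for neuroblasts (limma, adjusted p = 0.504, 0.515 and 0.556).

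**Figure D1:**
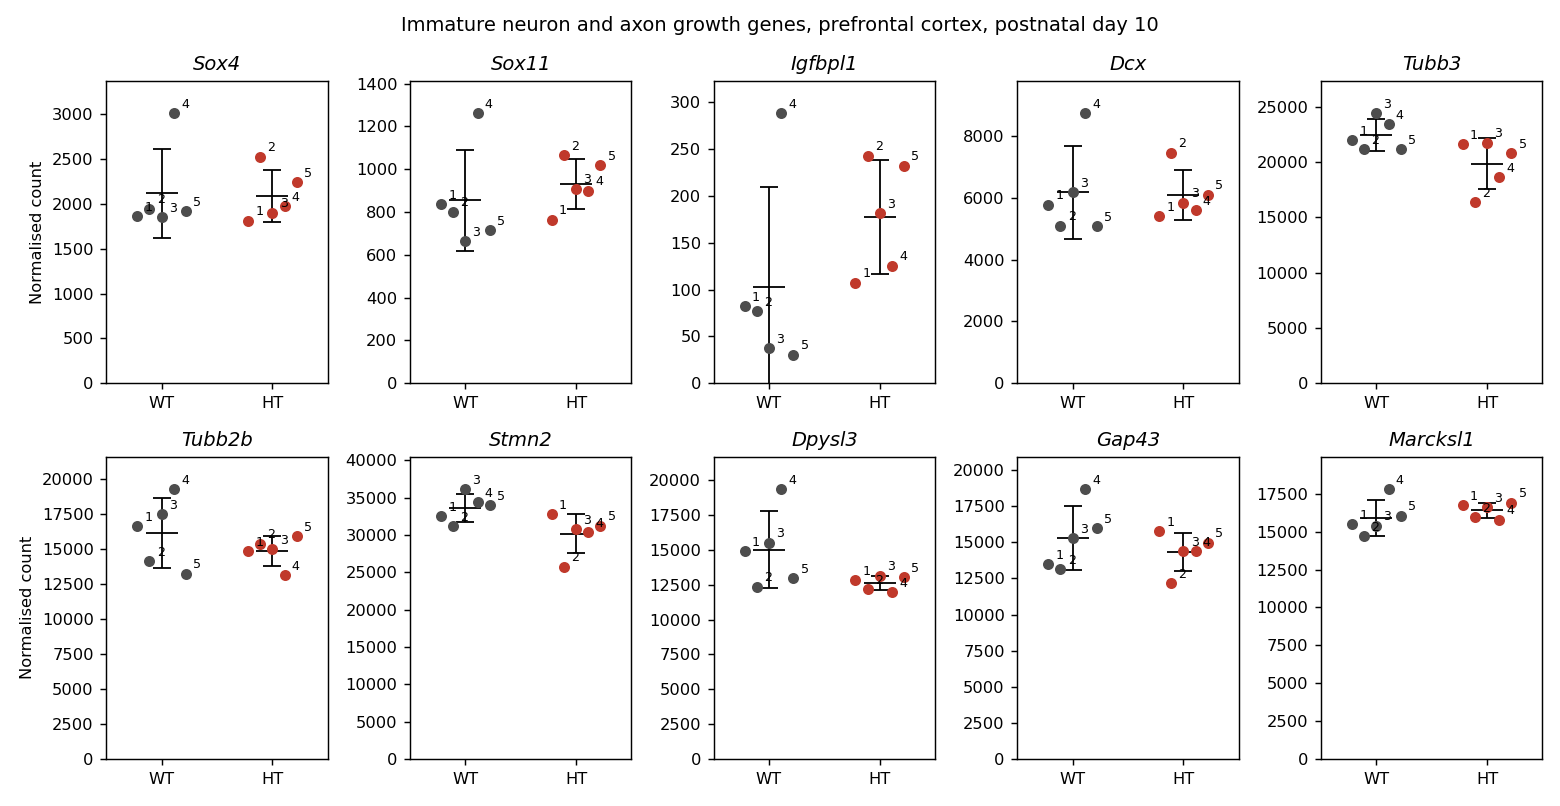
Normalised counts of the 10 genes in each mouse, one panel per gene with its own linear axis; points are mice, with horizontal marks for group means and bars for 1 SD (n = 5 HT and 5 WT). WT4 is the highest mouse in 8 of the 10 panels, and the HT and WT points overlap in all 10; the WT bar of Igfbpl1 is cut at 0.

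Dcx (ENSMUSG00000031285, chrX:143855842-143933311, minus strand) encodes doublecortin, which stabilises microtubules in migrating neurons. Its values were 5412, 7456, 5848, 5609.8 and 6105 normalised counts in HT1 to HT5 and 5785, 5101, 6174, 8734 and 5085 in WT1 to WT5. WT4 and HT2 were the 2 highest mice, 1 in each genotype, and the remaining 8 lay between 5085 and 6174. The group means were 6086 ± 808 in HT and 6176 ± 1504 in WT. On the log2 scale the difference was 0.00 (limma, SE 0.13, interval -0.28 to 0.28, adjusted p = 0.9996), so a difference of up to 0.28 on the log2 scale in either direction was not excluded by the spread between mice.

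Tubb3 (ENSMUSG00000062380, chr8:123411424-123422015, plus strand), the neuron-specific class III β-tubulin, measured 21615, 16362, 21743, 18638 and 20817 in the HT mice. The WT mice had 21988, 21143, 24389.9, 23435 and 21149. HT2, HT4 and HT5 lay below every WT mouse, all 5 HT mice lay below the WT mean, and HT1 and HT3 fell inside the WT range. The means were 19835 ± 2306 against 22421 ± 1444, a log2 fold change of -0.18 (SE 0.08, interval -0.35 to -0.02). This did not pass adjustment (limma, unadjusted p = 0.0337, adjusted p = 0.511), and the exact permutation p was 0.0794. Without HT2, the mouse with the highest mitochondrial share, it was -0.12 (limma, unadjusted p = 0.0672).

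Stmn2 (ENSMUSG00000027500, chr3:8509360-8561606, plus strand) is a neuronal stathmin that promotes microtubule turnover in growing axons. The HT values were 32727, 25733, 30729, 30374 and 31248, and the WT values were 32496, 31139.7, 36124, 34395 and 33950.3. All 5 HT mice were below the WT mean, and HT2, HT3 and HT4 were below every WT mouse. Mean levels were 30162 ± 2634 in HT and 33621 ± 1897 in WT, with a log2 fold change of -0.16 (SE 0.07, interval -0.30 to -0.02). The adjusted p was 0.51 (limma, unadjusted p = 0.0315), and the exact permutation p was 0.0397, where the smallest value that 5 against 5 allows is 0.00794. Without HT2 the log2 fold change was -0.10 (limma, unadjusted p = 0.0486).

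Dpysl3 (ENSMUSG00000024501, chr18:43320984-43438286, minus strand) encodes a collapsin response mediator protein that links guidance signals to the axonal cytoskeleton. It measured 12849, 12189.5, 13149, 11961 and 13032 in HT1 to HT5, a narrow spread, and 14909.9, 12380.2, 15536, 19375 and 12956 in WT1 to WT5. All 5 HT mice were below the WT mean, while WT2 and WT5 overlapped them. The means were 12636 ± 529 in HT and 15032 ± 2760.1 in WT, with a log2 fold change of -0.23 (SE 0.10, interval -0.44 to -0.03). It did not pass adjustment (limma, unadjusted p = 0.0303, adjusted p = 0.51), and the exact permutation p was 0.0714. Leaving out single mice gave log2 fold changes between -0.30, without WT2, and -0.14, without WT4.

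Tubb2b (ENSMUSG00000045136, chr13:34126748-34130466, minus strand), a β-tubulin known for cortical malformations when mutated, measured 14847, 15395, 15006, 13142 and 15924 in HT mice and 16620.4, 14120.0, 17506, 19292 and 13253 in WT mice. All 5 HT mice were below the WT mean, but WT2 and WT5 were below 4 of them, and only HT4 was lower still. Mean levels were 14863 ± 1048 in HT and 16158 ± 2472 in WT, with a log2 fold change of -0.11 (limma, SE 0.09, interval -0.31 to 0.09, adjusted p = 0.698). Without WT4 it was -0.04. When Tubb2a and Tubb2b were summed, which removes the uncertain split of reads between them, the log2 fold change was -0.14 (limma, SE 0.07, adjusted p = 0.563). Most of that sum was Tubb2a, which averaged 41491.5 in HT and 45731.3 in WT. The summed value therefore describes the pair and not Tubb2b alone.

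Neither of the growth cone genes passed the test, adjusted or not. Gap43 (ENSMUSG00000047261, chr16:42248442-42340651, minus strand), which regulates actin at the growth cone membrane, measured 15757, 12179.7, 14373, 14380.4 and 14980.2 in HT mice and 13491, 13156, 15309.5, 18692 and 15969.8 in WT mice. HT2 was the lowest and WT4 the highest, and the others were interleaved. Gap43 averaged 14334 ± 1331 in HT and 15324 ± 2226 in WT, with a log2 fold change of -0.09 (limma, SE 0.09, interval -0.29 to 0.11, adjusted p = 0.754). Without WT4 it was -0.02.

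Marcksl1 (ENSMUSG00000047945, chr4:129513581-129515985, plus strand), an actin-binding relative of Marcks, measured 16735, 15957, 16635, 15797 and 16912 in HT mice and 15513, 14697, 15408, 17815 and 16063 in WT mice. It averaged 16407 ± 497 in HT and 15899 ± 1176 in WT. Its fold change had the narrowest interval of the 10, with a log2 value of 0.05 (limma, SE 0.05, interval -0.07 to 0.16, adjusted p = 0.773). It was 0.09 without WT4 and 0.02 without WT2. The groups overlapped, with WT4 the highest mouse and 3 other WT mice below every HT mouse.

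None of the 10 genes passed an adjusted p of 0.05 in limma, where 0.0179% of all genes tested did. At an unadjusted p under 0.05, 4 of the 10 passed against 9.23% of all genes: Igfbpl1 was higher in HT, against 4.71% of all genes, and Tubb3, Stmn2 and Dpysl3 were lower in HT, against 4.52%. The exact permutation test put 1 of the 10, Stmn2, under 0.05, and 8.77% of all genes. No gene of the 10 separated the genotypes without overlap, a pattern that 1.62% of all genes showed. Values were lower in HT, with a log2 fold change below 0, for 7 of the 10, against 51.2% of all genes, and the median log2 fold change was -0.05. Dcx and Sox4 count among the 7 although their log2 fold changes were 0.00, and both lay above 0 under upper-quartile or quantile scaling. Without them 5 genes were lower in HT and 3 were higher. Because the genes vary together across mice, these counts are not independent of each other.

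The count of 4 rested on single mice. It was 0 without WT3, 1 without HT2 and 2 without HT4, WT4 or WT5, where 6.46%, 7.18%, 9.96%, 10.9% and 7.41% of all genes passed the same threshold. Leaving out HT2, HT5 and WT4 together, which stood apart on the first principal component in earlier results of these data, gave 1 (all genes 7.53%), as did leaving out HT5, WT3 and WT5 (all genes 3.87%). Dropping the variance trend or weighting samples by quality gave 1 (all genes 8.53% and 8.74%), and the striatal marker covariate gave 2 (all genes 9.90%). With the mean z-score of the neuroblast markers as a covariate it was 7, against 7.91% of all genes, adding Dcx, Sox4 and Tubb2b, all with log2 fold changes below 0. In that fit Dcx had a log2 fold change of -0.13 (limma, SE 0.05, adjusted p = 0.554), and the smallest adjusted p, for Dpysl3, was 0.404. No adjusted call was made for any of the 10 under any alternative. In bulk tissue, fewer cells of a type and less RNA per cell cannot be told apart.

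**Figure D2:**
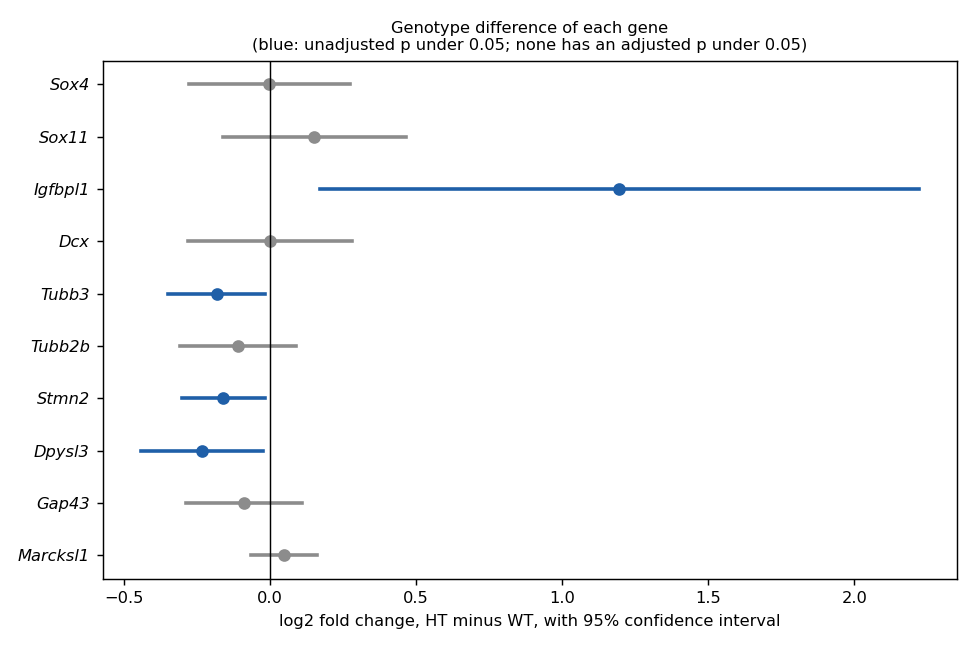
Log2 fold change of each of the 10 genes, HT relative to WT, with its 95% confidence interval from limma (n = 5 HT and 5 WT). The intervals of Igfbpl1, Tubb3, Stmn2 and Dpysl3 exclude 0 before adjustment, and those of the other 6 genes include it.

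Levels of different genes can be compared only per length of transcript, and the following values are WT means of normalised counts per kilobase of annotated exon. Tubb3 was highest at 12003 ± 773 (SD, n = 5, as for every value here), followed by Gap43 at 10062 ± 1462 and Marcksl1 at 9906 ± 733. Tubb2b stood at 7044 ± 1078 and Stmn2 at 6002 ± 339. These 5 cytoskeletal and growth cone genes formed the upper group.

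Dpysl3 was intermediate at 2275 ± 418. Dcx at 488 ± 119 and Sox4 at 442 ± 104 came next, and Sox11 at 103 ± 28.5 and Igfbpl1 at 31.7 ± 32.6 were lowest. Neighbours in this order whose ranges of mean ± SD overlapped were Tubb3 and Gap43, Gap43 and Marcksl1, Tubb2b and Stmn2, and Dcx and Sox4. The lengths count every annotated exon base, whether or not it was used in this tissue, so the order depends on the annotation.

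The 10 genes also differed in how steady they were among WT mice. The coefficient of variation was 5.64% for Stmn2, 6.44% for Tubb3 and 7.40% for Marcksl1. For Dcx, Sox4 and Sox11 it was 24.3%, 23.6% and 27.7%, and for Igfbpl1 it was 103%. Gap43 at 14.5%, Tubb2b at 15.3% and Dpysl3 at 18.4% lay between. WT4 entered these values. For Sox4 it was at 3009.8, and the other WT mice lay between 1853 and 1948. Among HT mice the contrast was smaller, with 8.73% for Stmn2, 11.6% for Tubb3 and 3.03% for Marcksl1. Dcx, Sox4 and Sox11 had 13.3%, 13.9% and 12.6% there, and Igfbpl1 had 34.3%. Gap43, Tubb2b and Dpysl3 had 9.29%, 7.05% and 4.19%.

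WT4 was the highest of all 10 mice for 8 of the genes and among the highest 2 for all 10. For Tubb3 and Stmn2 the highest mouse was WT3. HT2 behaved differently by gene, being second highest for Dcx, Sox4, Sox11 and Igfbpl1 and lowest for Tubb3, Stmn2 and Gap43.

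The same mice stood out in the marker lists. The 12 markers of subventricular neuroblasts and olfactory bulb interneurons, among them Dlx1, Dlx2 and Sp8, summed to 20526 normalised counts in WT4 and 19829 in HT2, and to between 14727 and 17102 in the other 8 mice. The 10 olfactory bulb markers summed to 16617 in WT4 and 16913 in HT2, with WT3 next at 14734. The lists held no gene at 0 in any mouse. Between genotypes, 10 of the 12 neuroblast markers and 9 of the 10 olfactory bulb markers were higher in HT, beside 48.8% of all genes, and 0 of either list at an unadjusted p under 0.05 in limma. The part of these cells or regions in the values of Dcx, Sox4, Sox11 and Igfbpl1 was not tested beyond the covariate fit above.

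HT2, the lowest mouse for Tubb3, Stmn2 and Gap43, had the lowest sum of cortical projection neuron markers, 55097, against 61266 to 73913 in the other mice. It also had the highest sum of the 10 astrocyte markers, 204110.0, and of the 10 microglia markers, 15284. All 10 astrocyte markers and all 10 microglia markers were higher in HT on average, beside 48.8% of all genes. At an unadjusted p under 0.05, 6 and 3 of them were higher, against 4.71% of all genes, and 0 after adjustment (limma). The astrocyte sums spanned 160362 to 204110.0 in HT and 146254 to 172826 in WT, and the microglia sums 10908 to 15284 in HT and 10646 to 12221 in WT. Their part in the lower Tubb3 and Stmn2 values was not tested.

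**Figure D3:**
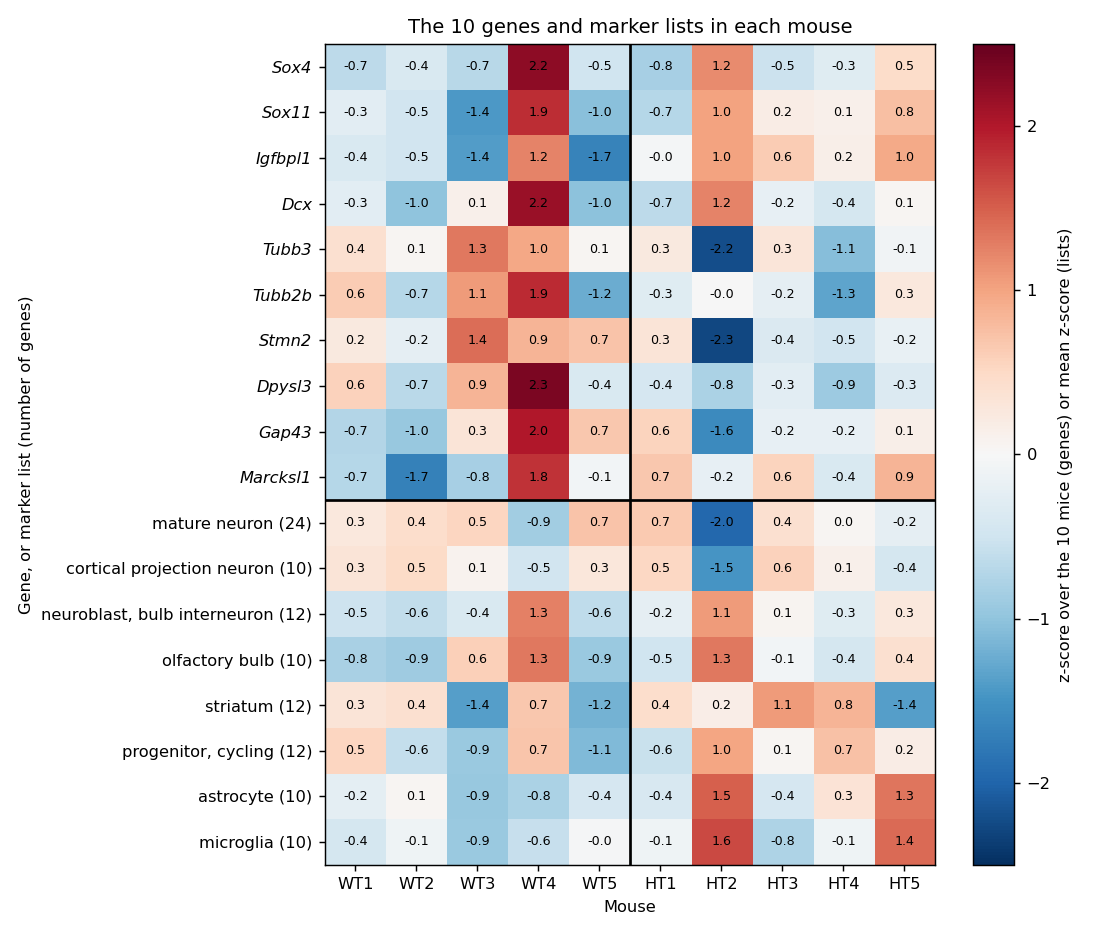
Standardised log2 level of each of the 10 genes and mean standardised score of each marker list in each mouse (columns, 5 WT then 5 HT). Colour gives the z-score over the 10 mice. WT4 and HT2 are high for Dcx, Sox4, Sox11 and Igfbpl1 and for the neuroblast and olfactory bulb lists, while HT2 is low for Tubb3, Stmn2 and the mature neuron list.

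Correlations over the 10 mice were computed for all 45 pairs of the 10 genes on log2 values (permutation test with 100000 resamples, Benjamini-Hochberg adjustment over the 45). All points share the same libraries and size factors. After adjustment 6 pairs passed, all positive.

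The 3 pairs with the smallest permutation p were as follows. Tubb3 and Stmn2 had r = 0.926 (permutation p = 0.00024, adjusted p = 0.00405) and rho = 0.794 (permutation p = 0.00851, adjusted p = 0.0638), and r = 0.79 without HT2 and HT4. Sox11 and Igfbpl1 had r = 0.917 (permutation p = 0.00027, adjusted p = 0.00405) and rho = 0.952 (permutation p = 0.00012, adjusted p = 0.0054), and r = 0.906 without WT3 and WT4. Sox4 and Sox11 had r = 0.889 (permutation p = 0.00026, adjusted p = 0.00405) and rho = 0.806 (permutation p = 0.00713, adjusted p = 0.0638), and r = 0.728 without HT2 and WT4. In each of these 3 pairs the relation stayed above 0.7 once the 2 farthest mice were removed.

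Tubb2b and Dpysl3 had r = 0.878 (permutation p = 0.00051, adjusted p = 0.00574) and rho = 0.818 (permutation p = 0.00567, adjusted p = 0.0638), and r = 0.743 without HT4 and WT4. Dcx and Sox4 had r = 0.90 (permutation p = 0.00291, adjusted p = 0.0262) and rho = 0.455 (permutation p = 0.19, adjusted p = 0.392), but r = 0.265 without HT2 and WT4. Dcx and Sox11 had r = 0.788 (permutation p = 0.0062, adjusted p = 0.0465) and rho = 0.636 (permutation p = 0.055, adjusted p = 0.206), and r = 0.291 without the same mice. The relations of Dcx with both Sox genes therefore rested on HT2 and WT4.

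Of the 45 pairs, 9 had a correlation below 0. They included all 8 that join Dcx, Sox4, Sox11 or Igfbpl1 with Tubb3 or Stmn2, whose r lay between -0.541 and -0.0505. None of these 8 passed the permutation test after adjustment, the smallest adjusted p being 0.222. Without WT4, a step chosen after seeing the data, r lay between -0.867 and -0.505. With genotype means removed and all mice kept, r of these 8 pairs lay between -0.338 and -0.034. Dcx was an exception by rank, with rho of 0.224 with Tubb3 and 0.0545 with Stmn2, and without HT2 and WT4 its r with them was 0.354 and 0.136. The ninth was Gap43 with Igfbpl1.

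Genes that share the roles of the 10 were taken from 7 further lists with 62 members. None of the 62 passed adjustment in limma, 9 were lower in HT at an unadjusted p under 0.05 and 0 were higher. Over all genes tested, 4.52% were lower and 4.71% higher at that threshold, the shares to set beside each list's count. Of the 62, 44 had a log2 fold change below 0 (median -0.06), beside 51.2% and a median of -0.0035 over all genes tested. The count of 9 was 4 without HT5, 6 without HT2, 5 with no variance trend and 2 without HT5, WT3 and WT5. The share of all genes in either direction went from 9.23% to 6.73%, 7.18%, 8.53% and 3.87%. HT2 had the lowest sum of the 62 genes, 745056 normalised counts, against 833743 to 899160 in the other mice. The genotypes did not overlap for 2 of the 62, Chl1 and Elavl4, against the 1.62% of all genes.

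Among other transcription factors of newborn neurons, 2 of 12 were lower at an unadjusted p under 0.05. They were Nfix, a nuclear factor I protein of neuronal differentiation, with a log2 fold change of -0.17 (limma, adjusted p = 0.496), and Zeb2, a regulator of cortical neuron fate, at -0.13 (adjusted p = 0.514). Sox12, the remaining SoxC gene, was at -0.02 (adjusted p = 0.941).

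All 7 other tubulin isotypes had log2 fold changes below 0 (median -0.09), with 0 at an unadjusted p under 0.05 in limma. Tubb2a was at -0.15 (limma, adjusted p = 0.565) and Tuba1b at -0.11 (unadjusted p = 0.104). Of the 9 other microtubule-associated proteins, 7 lay below 0, with Map1b, an early axonal protein, at -0.14 (limma, unadjusted p = 0.0947) and Dclk2, a doublecortin-like kinase, at 0.10 (unadjusted p = 0.148). Neither list held a gene that passed the unadjusted threshold.

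The collapsin response mediator and stathmin relatives had 1 of 7 lower at an unadjusted p under 0.05. Stmn4, a neuronal stathmin related to Stmn2, measured 7115, 6143, 6748, 6388 and 6447 in HT mice and 6997, 7039, 7836, 7509.8 and 7737 in WT mice. HT1 alone among HT mice reached the WT range. Its log2 fold change was -0.18 (limma, SE 0.05, unadjusted p = 0.00371, adjusted p = 0.414). Dpysl5, the relative of Dpysl3, was at -0.15 (limma, adjusted p = 0.549), and Stmn1, a widely expressed stathmin, at -0.02 (adjusted p = 0.932).

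In the growth cone list, 1 of 11 genes was lower at an unadjusted p under 0.05. This was Klf7, a transcription factor that promotes axon growth, with 3453 ± 261 in HT and 3949.5 ± 176 in WT and a log2 fold change of -0.20 (limma, SE 0.06, adjusted p = 0.414). Enc1, an actin-binding protein, was at -0.16 (limma, unadjusted p = 0.0666). Marcks, the relative of Marcksl1, was at 0.10 (limma, adjusted p = 0.637).

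Adhesion genes had 3 of 10 lower at an unadjusted p under 0.05, against 4.52% of all genes. They were Chl1, Nrcam and L1cam, adhesion molecules of axons. Chl1 measured 11236, 9437, 11568, 11328 and 11185 in HT mice and 12156, 11642, 14459.9, 12944 and 12918 in WT mice. The groups did not overlap, with the highest HT mouse at 11568 and the lowest WT mouse at 11642. Chl1 had a log2 fold change of -0.23 (limma, SE 0.07, unadjusted p = 0.00452, adjusted p = 0.452). Nrcam was at -0.16 and L1cam at -0.13 (limma, adjusted p = 0.511 and 0.521).

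Neuronal RNA-binding proteins had 2 of 6 lower at an unadjusted p under 0.05. Elavl4, which stabilises transcripts of growing neurites, measured 3301, 2462, 3225, 3391 and 2919 in HT mice and 3395, 3522, 3876, 3690.4 and 4288 in WT mice, again without overlap and by a small margin. It was at -0.30 (limma, SE 0.09, unadjusted p = 0.0037, adjusted p = 0.414), the largest of the 62 that passed the unadjusted threshold. Elavl2, its relative, was at -0.21 (limma, adjusted p = 0.513).

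Genes that rise as neurons mature were compared to see whether the balance between the stages differed. Of 24 such genes, 21 had log2 fold changes below 0 (median -0.07), against 51.2% of all genes, 0 passed adjustment and 1 passed an unadjusted p of 0.05 in limma. That gene was Vsnl1, a neuronal calcium sensor, at -0.19 (limma, adjusted p = 0.527), and the next was Calm3, a calmodulin gene, at -0.10 (unadjusted p = 0.0939). The mature genes summed to 493916 normalised counts in HT2 and 537814 in WT4, and to between 575986 and 617612 in the other mice. Without HT2, 0 of them passed the unadjusted threshold in limma, against 7.18% of all genes. The 10 immature genes and the mature genes thus both had medians slightly below 0 with all mice included.

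The balance itself was described per mouse as the mean log2 level of the 10 genes minus that of the 24 mature genes, set to 0 at the WT mean. It was -0.09, 0.45, 0.05, -0.03 and 0.24 in HT1 to HT5 and -0.04, -0.17, -0.14, 0.65 and -0.29 in WT1 to WT5. WT4 was highest and HT2 second, and the groups overlapped. The HT mean was 0.13 with an SD of 0.22 and the WT SD was 0.37. The difference was smaller than either SD with all mice included, but this rested on WT4. Without WT4, left out after seeing the data, the other 4 WT mice had a mean of -0.16 with an SD of 0.10, and the difference was 0.29, larger than either SD. Each gene had equal weight in these means, and Igfbpl1, the least abundant, differed most. Its log2 fold change was 1.19, while those of the other immature genes lay between -0.23 and 0.15. Without WT4 it was 1.68, and the others lay between -0.17 and 0.30. The size of the balance without Igfbpl1 was not computed. The balance is a description and was not tested.

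**Figure D4:**
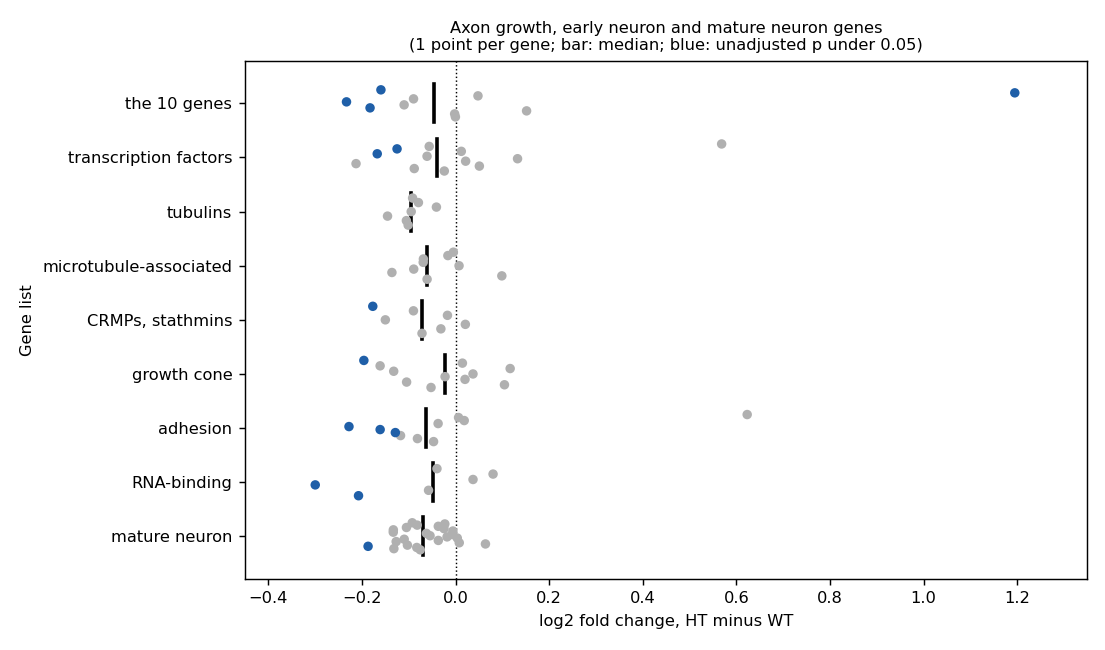
Log2 fold change, HT relative to WT, of every gene in the set of 10, the 7 further lists and the mature neuron list; each point is 1 gene, with the list median marked and genes at an unadjusted p under 0.05 in a separate colour. Medians of the lists of immature neuron genes lie between -0.09 and -0.02, and Igfbpl1 is the point farthest above 0.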

How the data were processed

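Poly-A RNA of 5 HT and 5 WT samples was sequenced by the authors in stranded libraries. Per the labels and the authors' processing notes as submitted, the tools were Salmon 1.1.0, R 4.1.1 and DESeq2 1.30.1, with genome GRCm38. The deposited values are a normalised signal per gene, for which the authors summed Salmon estimates to genes and divided them by DESeq2 size factors. Between 7.78% and 28.4% of low values were whole multiples of 1 step (tolerance 0.02), so whole reads and depth could not be recovered and a test for counts was not used. A change in total RNA would not be seen, and Salmon divides reads of near-identical genes by a model.

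Symbols and positions came from GENCODE M21 (18205 of 18216 identifiers matched). Values were transformed as log2(value + 1), which understates changes of low genes such as Igfbpl1, and testing covered the 16781 genes that averaged 10 or more, two-sided, with limma 3.58.1 in R 4.3.3 (lmFit, eBayes with trend, genotype as factor), adjusted by Benjamini-Hochberg with 0.05 as threshold. Exact permutation tests used the 252 assignments of 5 of 10 mice. Python 3.11.15 with scipy 1.17.1 was used for the rest. The fit was tested on simulated data. Groups and replicate numbers came from titles, and each replicate was taken as 1 mouse, as the study states.

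The 10 genes and all lists were chosen with earlier results of these data known. Named were all 10, from each further list the genes passing adjustment or otherwise the 2 with the smallest p, paralogs, and Arid1b. L1cam, Ccnb1 and Cspg4 were named after their values were seen. Marker lists were used as summed levels, as counts of genes and as mean z-scores. Alternatives were other pseudocounts, filters, scalings, variance settings, marker covariates, a replicate block, and leaving out mice. Leaving out HT5, WT3 and WT5 was chosen after seeing the data.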

Additional observations from a re-analysis of the deposited data

Results flagged for a closer look

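In 3 of the 28 groups of 5 mice examined, 1 mouse stood far from the other 4, where chance gives about 1.4. The gap to the nearest mouse was taken on log2 values for genes and on mean z-scores for marker lists. It was compared with the whole range of the group, with a critical ratio of 0.71. All 3 concerned WT4 among the WT mice. For Sox4 the ratio was 0.897, with WT4 at 3009.8 normalised counts and the other WT mice between 1853 and 1948. For the score of neuroblast and olfactory bulb interneuron markers it was 0.859, with WT4 at 1.26 and the others between -0.64 and -0.37. For the score of mature neuron genes it was 0.72, with WT4 at -0.88 and the others between 0.27 and 0.72. Without WT4, the log2 fold change of Sox4 was 0.13 instead of 0.00.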

How the results depend on the processing

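No adjusted call was made for the 10 genes, the 62 further genes or the 24 mature genes under any alternative, and the smallest adjusted p of the 10 genes was 0.319 (Igfbpl1 without WT4). Of 201 log2 fold changes that an alternative could move, 183 kept their direction, and filters, the variance trend, the block and the exact test leave the value as it is. Those that turned were of Dcx and Sox4, whose main values were near 0, and of Sox11 and Gap43. With upper-quartile scaling, Dcx was at 0.0105 and Sox4 at 0.00882 (log2). With quantile normalisation they were at 0.0261 and 0.0111, and with sample quality weights Dcx was at 0.00385. Without HT2, HT5 and WT4, Dcx was at 0.0269, Sox4 at 0.000592 and Gap43 at 0.0385. Without HT5, WT3 and WT5, Sox11 was at -0.0644. Leaving out single mice gave -0.0758 (without HT2) to 0.13 (without WT4) for Dcx, -0.0727 to 0.13 for Sox4, 0.07 to 0.30 for Sox11, 0.02 to 0.09 for Marcksl1 and 0.88 to 1.68 for Igfbpl1. Tubb3 (-0.22 to -0.12), Stmn2 (-0.19 to -0.10), Dpysl3 (-0.30 to -0.14), Tubb2b (-0.18 to -0.04) and Gap43 (-0.14 to -0.02) stayed below 0. With genotype means removed, 13 pairs of genes passed the correlation test in place of 6. The causes were not tested.

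The replicate numbers belong to different mice, and the labels do not say whether they mark a shared litter or day. Same-numbered mice had correlations of their deviations between -0.04 and 0.10, with a mean of 0.04, against -0.01 for mice of different numbers. Of 5 mice a genotype, 3 HT and 2 WT mice correlated best with the mouse of their own number. These correlations were small and the labels give no pairs, so the numbers were not taken to pair them. With the replicate block, 0 of the 10 genes passed adjustment and 4 passed the unadjusted threshold, and 11 of the 62 further genes in place of 9. With 5 mice a genotype and unknown depth, the printed intervals give the precision of each fold change.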

Other observations

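Cycling and progenitor genes, which precede the stage marked by the 10 genes, were also measured, with means from 71.5 for Birc5 to 1016 for Pcna. The 12 genes of that list summed to between 4015 and 5644 normalised counts in HT mice and between 3775 and 5157 in WT mice. Of the 12, 11 had a log2 fold change above 0 (median 0.18), against 48.8% of all genes. In limma 0 passed adjustment and 1 passed an unadjusted p of 0.05, where 4.71% of all genes were higher. That gene was Ccnb1, a cyclin of mitotic entry, with 99.3 ± 14.5 in HT and 74.7 ± 17.6 in WT (SD, n = 5 each) and a log2 fold change of 0.42 (limma, SE 0.17, adjusted p = 0.507). The highest sum was in HT2, and WT4 at 5157, HT4 at 5141 and WT1 at 5044 were close to each other.

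Oligodendrocyte markers varied strongly between WT mice. The 10 markers summed to 38667 in WT3 and 92337 in WT2, and the HT mice lay between 65800.5 and 89765. All 10 had log2 fold changes above 0 (median 0.24), against 48.8% of all genes. In limma 0 passed adjustment and 1, Cspg4 of oligodendrocyte precursors, was higher at an unadjusted p under 0.05, against 4.71% of all genes. The 10 endothelial markers summed to between 8554 and 12068 in HT and between 8749 and 9617 in WT, with HT2 the highest mouse. Of these, 8 of 10 were higher in HT, with 0 at an unadjusted p under 0.05 in limma.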
